A study of Homo sapiens with 9 samples.

Results

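The transcriptome of the parental MCF-10A line (labelled WT) was described from 3 libraries, out of 9 in the series, taken by their genotype label. MCF-10A is an established line of human breast epithelium that does not form tumours. Routine medium held horse serum at 5% and epidermal growth factor (EGF) at 20 ng/ml. At 80% confluence the cells were moved for the last 24 h to phenol red-free medium with 1% charcoal-stripped fetal bovine serum and only 0.2 ng/ml EGF. Both media contained insulin at 10 µg/ml, cholera toxin at 100 ng/ml and hydrocortisone at 0.5 µg/ml. The other 6 libraries, from knock-in lines of PIK3CA, were not compared here. The parental cells carry no knock-in, are a single immortalised line, and were sampled at 1 time in 1 medium, so the levels belong to those conditions.

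The breast epithelium has an inner luminal layer, which includes hormone-sensing and milk-forming cells, and an outer basal layer of contractile myoepithelial cells that sits on the basement membrane. Keratins mark the layers, cadherins and desmosomes join the cells to each other, and integrins and hemidesmosomes join them to laminin. EGF acts through the receptor EGFR, insulin through INSR and IGF1R, and hydrocortisone through the glucocorticoid receptor NR3C1. Cholera toxin enters cells through the ganglioside GM1 and locks the G protein subunit encoded by GNAS in its active state, which raises cAMP.

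Levels are counts scaled to a common library total (CPM, the usual unit of RNA-seq counts), and CPM divided by the exon length of the gene in kilobases (CPM per kb) wherever genes are set side by side. Totals were 136132315, 96045875 and 95091894 counts in replicates 1, 2 and 3. The floor was set at 3 counts, or 0.0220, 0.0312 and 0.0315 CPM in replicates 1, 2 and 3. That is about the most that a count of 0 allows if counts are independent. Both mates of a pair were counted, so they are not, and the true bound lies higher. The floor covers counting error only. Of 19886 protein-coding genes, 12515 (62.9%) reached 1 CPM in every library, and the median over all 19886 was 1.69 CPM per kb, with 18.1 at the 90th and 133 at the 99th percentile. Protein-coding genes took 85.9% to 86.0% of counts. Median coefficients of variation over the 3 libraries fell from 24.2% for genes of 0.1 to 1 CPM to 6.37% at 1 to 10, 2.52% at 10 to 100 and 1.35% above 100 CPM.

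The long RNAs MIR205HG, MIR23AHG and MIR200CHG host microRNA genes, and the mature microRNAs are shown because those of MIR205HG and MIR200CHG are known from epithelial cells. MIR205HG, on chromosome 1, was read at 452, 460.3 and 448 CPM in replicates 1, 2 and 3. MIR23AHG, on chromosome 19, was read at 97.9, 103 and 99.4 CPM. MIR200CHG, on chromosome 12, was read at 1.20, 1.10 and 1.15 CPM. The sequences come from RefSeq (GRCh38.p14), 5′ to 3′, with the seed, bases 2 to 8, in capitals.
miR-205-5p: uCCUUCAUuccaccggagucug
miR-23a-3p: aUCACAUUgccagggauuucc
miR-27a-3p: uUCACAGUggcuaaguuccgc
miR-24-3p: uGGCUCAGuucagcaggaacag
miR-200c-3p: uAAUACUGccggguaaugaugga
miR-141-3p: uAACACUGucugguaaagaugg
The 6 mature RNAs have 6 different seeds. In the RefSeq table the seed of miR-205-5p occurs under 1 name, whereas that of miR-200c-3p occurs under 3, with miR-200b-3p and miR-429, and that of miR-141-3p under 2, with miR-200a-3p. The miR-200 family and miR-205 are known to keep the mesenchymal regulators ZEB1 and ZEB2 low. Mature microRNAs were not measured, and the hosts were picked after their levels were seen. MIR205HG stood among the 10 highest long noncoding RNAs that share under 20% of their exon bases with other genes.

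Keratins of the basal layer led the protein-coding genes. Structural RNAs stood above them, with RN7SL1 of the signal recognition particle at 71484 ± 725 CPM per kb and RN7SK, which restrains transcription elongation, at 30919 ± 599. KRT17 (chromosome 17, 41619442 to 41624842, hg38, minus strand) was read at 4179, 4182 and 4162 CPM per kb, the highest level of any protein-coding gene. KRT5 (chromosome 12, 52514575 to 52520530, minus strand), a partner keratin of the basal layer, followed with 3353, 3363 and 3283. KRT81, a hair keratin, stood at 2318 ± 7.03 CPM per kb (SD, n = 3), and KRT6A, a keratin of activated epidermis, at 1611 ± 13.5. The luminal keratin KRT7 reached 1110 ± 21.7 CPM per kb. In each library the order of these 5 was the same.

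The 55 keratin genes took 4.37%, 4.39% and 4.34% of counts, and those 5 held 91.5% ± 0.125 of the keratin counts. Only 18 of the 55 reached 1 CPM in every library, against 62.9% of protein-coding genes. On average 30 stayed under 0.1 CPM, as did 4988 of 19886 protein-coding genes. KRT14, the usual partner of KRT5, was low for its kind at 20.9, 21.5 and 20.6 CPM per kb. The ratio of KRT5 to KRT14 was thus 160.2, 156 and 159.7, and that of KRT17 to KRT14 was 199.6, 194 and 202. KRT15, another basal keratin, reached 347 ± 2.74 CPM per kb and KRT16 reached 65.8 ± 1.64. Near-identical keratins, such as KRT6A, KRT6B and KRT6C, or KRT14, KRT16 and KRT17, or KRT81, KRT83 and KRT86, can share reads, so their split is uncertain.

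Stress, cytoskeletal and calcium-binding genes filled much of the rest of the 20 highest protein-coding genes. The small heat shock protein HSPB1 reached 2736 ± 31.7 CPM per kb, the actin-binding TMSB10 2526 ± 66.3, and the actins ACTB and ACTG1 2085 to 2096 and 1777 ± 7.54. The S100 genes S100A2, S100A6 and S100A10 stood at 1498 ± 91.4, 1101 ± 38.5 and 1061 ± 17.9. S100A2, a p63-linked basal gene, was lower in replicate 3 (1394) than in replicates 1 and 2 (1566 and 1533). The matrix protein TGFBI, known to be induced by TGF-beta, reached 1085 ± 12.9, and the amino acid transporter SLC7A5 1147 ± 6.75. The other members were the mitochondrial MT-CO1, MT-CO2 and MT-CO3, the elongation factor EEF1A1 (1452 ± 33.7), GAPDH (1116 ± 22.5) and the ferritin chain FTH1. FTH1, at 1944 ± 5.26, shares 63.2% of its exon bases with other genes, so its own level is uncertain.

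Among long noncoding RNAs, 5 of the 10 highest were unnamed genes with 39.2% to 100% of their exonic sequence in common with others. MALAT1, a nuclear RNA of speckles, had the highest CPM of the others, not divided by length, with 2243, 2197 and 2190. KRT7-AS, antisense to KRT7, was read at 1030 CPM on average. It lies within the span of KRT7, and 16.7% of its exon bases are shared with other genes. Without strand, reads from KRT7 that touch its exons count for it too, so its own level is uncertain. SNHG29 and NORAD were read at 554 and 527 CPM.

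The basal markers were present throughout. All 19 genes of that list reached 1 CPM in every library, against 62.9% of protein-coding genes. Their median was 65.8 CPM per kb against 1.69 over protein-coding genes. TP63, the master regulator of basal epithelium, was read at 25.6, 25.9 and 25.5 CPM per kb, which lay at the 93.2th percentile of protein-coding genes. SFN, an epithelial 14-3-3 protein, reached 420.0 ± 3.49 CPM per kb and CAV1, a caveolar protein of basal cells, 274 ± 3.89. At the low end, KRT6B stood at 5.37 CPM per kb and the nerve growth factor receptor gene NGFR at 0.279.

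**Figure D1:**
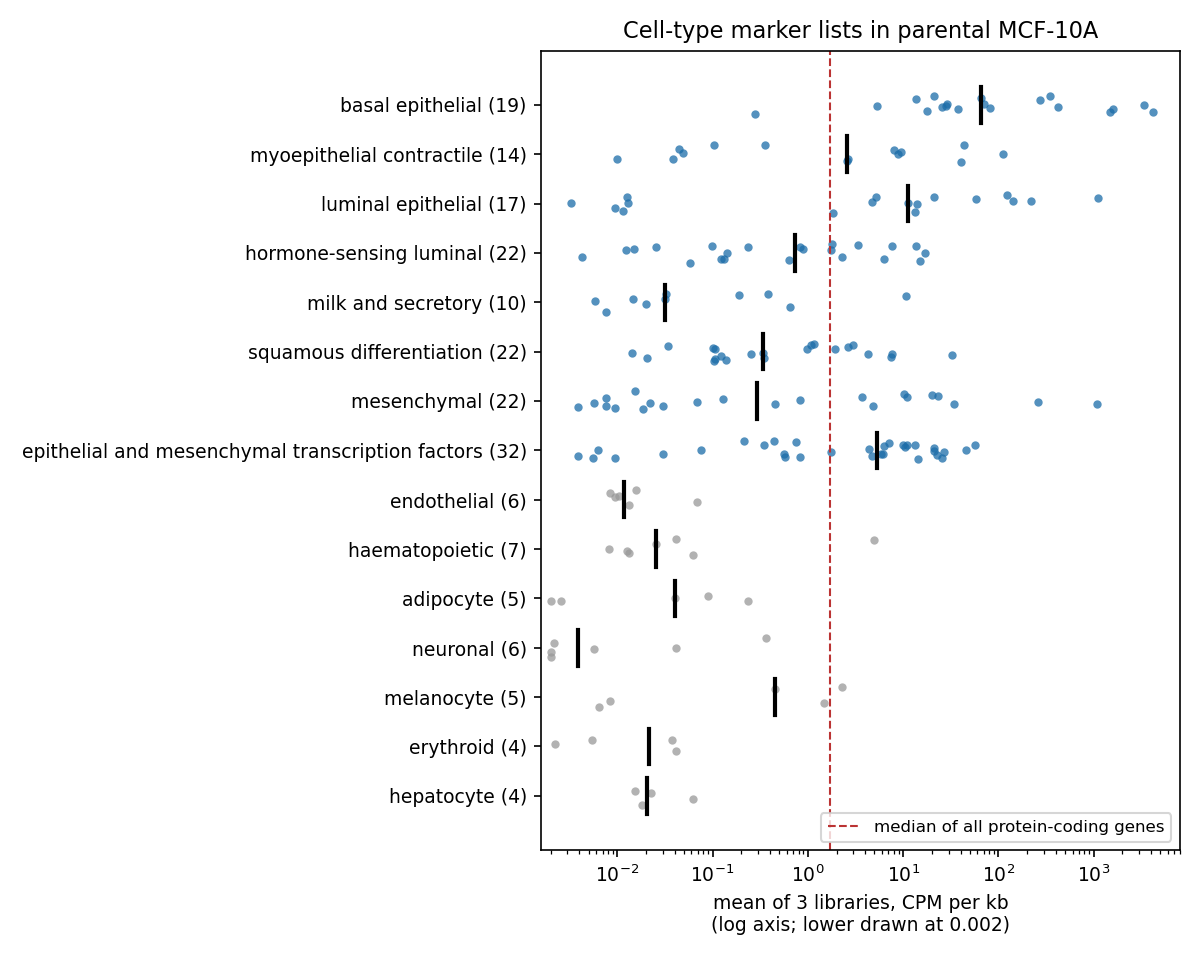
Mean level of each member (point) of 15 marker lists over the 3 parental libraries, in CPM per kb on a log axis, with the number of genes in brackets; the black bar is the list's median and the dashed line the median of protein-coding genes (1.69). The basal list has the highest median (65.8), and the lists of other tissues, in grey, lie below the dashed line apart from CD68 and MITF.

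The contractile programme of myoepithelial cells was partial. Of 14 genes, 9 reached 1 CPM in every library (64.3%), close to the 62.9% of protein-coding genes, with a median of 2.60 CPM per kb. The general actin regulators CNN2 (113 ± 1.41), CALD1 (43.7 ± 0.515) and TPM2 (40.8 ± 1.38) were high. The smooth-muscle genes were low, with ACTA2 at 2.65 ± 0.299 CPM per kb, MYH11 at 0.0448 ± 0.0117 and ACTG2 at 0.0493 ± 0.00284. CNN1, a marker of contractile smooth muscle, was at 0.00777, 0.0147 and 0.00741. OXTR, the oxytocin receptor, stood at 0.103 ± 0.0150. ACTA2 shares 30.8% of its exon bases with other genes, so its own level could be lower.

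Luminal markers split into a group that was high and a group near the floor. Of 17 genes, 12 reached 1 CPM in every library (70.6%, against 62.9% of protein-coding genes), and the median was 11.2 CPM per kb. Beside KRT7, the surface protein CD24 was read at 217, 216 and 229 CPM per kb and the simple keratins KRT8 and KRT18 at 143 ± 4.79 and 123 ± 3.67. EPCAM, a luminal surface marker, was lower at 14.1 ± 0.150, and the apical mucin MUC1 at 13.4 ± 0.712. Of the luminal progenitor genes, KIT (0.0131 ± 0.00776), PROM1 (0.0126 ± 0.00242), ELF5 (0.00948) and LTF (0.0115) stayed under 0.1 CPM. ALDH1A3, ELF3, EHF and SLPI of the same list did not follow them, and each reached 1 CPM in every library. ALDH1A3 was at 11.2 ± 0.194 CPM per kb, with 33.3% of its exon bases shared with other genes. KRT23, at 0.00324 CPM per kb, was at or under 3 counts in each library. KRT19 lay between these groups and was set by replicate 1. KRT5 exceeded KRT8 by 23.3 ± 0.740 times (SD, n = 3).

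Of 22 hormone-sensing genes, 13 reached 1 CPM in every library (59.1%), near the 62.9% of protein-coding genes. Their median was 0.733 CPM per kb, against 1.69 over protein-coding genes. ESR1, which encodes the estrogen receptor (chromosome 6, 151656691 to 152129619, plus strand), was read at 13.2, 12.1 and 11.7 CPM, or 0.891 ± 0.0549 CPM per kb, at the 43.9th percentile. Its known target GREB1 was read at 45.6, 38.7 and 39.5 CPM. For both, replicate 1 was the highest of the 3 libraries. CXXC5 (16.8 ± 0.508 CPM per kb), the carbonic anhydrase CA12 (13.7 ± 0.179), the stress regulator XBP1 (14.9 ± 0.851) and the luminal factor GATA3 (6.28 ± 0.609) were the highest members beside TFF1. The progesterone receptor PGR, the prolactin receptor PRLR, SPDEF, TFF1 and TFF3 were set by replicate 1 and are given with the check of the libraries. AGR3 was at or under 3 counts in each library.

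Of 10 milk genes, 3 reached 1 CPM in every library (4 without replicate 1), led by the milk fat globule protein MFGE8 at 10.8 ± 0.213 CPM per kb. The caseins CSN1S1, CSN2 and CSN3 and the lactose synthase subunit LALBA had means between 0.00586 and 0.0328. Of 22 genes of squamous differentiation, 11 reached 1 CPM in every library (50.0%, against 62.9% of protein-coding genes), with a median of 0.340 CPM per kb against 1.69. SPRR1B, a cornified-envelope precursor, stood out from them at 32.2, 34.8 and 31.1 CPM per kb. Involucrin, IVL, was at 1.08 ± 0.0612 and the late keratin KRT1 at 0.0340.

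The mesenchymal list held TGFBI, among the 20 highest protein-coding genes, and many low genes. Of 22 genes, 12 reached 1 CPM in every library (54.5%, against 62.9% of protein-coding genes), and the median was 0.290 CPM per kb. Of the 22 genes, 7 lay at 10 CPM per kb or more, and 2 of these at 100 or more. Among the 7 were TGFBI, fibronectin FN1 (34.4 ± 0.737), COL6A1 (23.4 ± 0.371) and vimentin VIM (20.3 ± 0.219). Fibroblast genes lay far below, with PDGFRA at 0.00753 CPM per kb, POSTN at 0.00563, COL1A2 at 0.00760, SPARC at 0.0155 and LUM at 0.00940. COL1A1, at 4.77 ± 0.0661, and DCN, at 3.70 ± 0.143, did not follow the other fibroblast genes.

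Of 32 transcription factors of epithelial and mesenchymal states, 25 (78.1%) reached 1 CPM in every library, against 62.9% of protein-coding genes. Their median was 5.28 CPM per kb. Beside TP63, the highest were KLF5 (56.9 ± 1.27), a basal and progenitor factor, ESRP1 (45.6 ± 0.239), which directs epithelial splicing, SNAI2 (27.1 ± 0.715), a basal factor of the Snail family, SOX4 (22.5 ± 0.392) and GRHL2 (21.3 ± 0.211), a regulator of junction genes. ZEB2 was at 0.574 and ZEB1 at 0.0758 CPM per kb, so that ESRP1 exceeded ZEB1 by 645, 455 and 803 times. SNAI1 was at 0.214. TWIST1 and TWIST2, factors better known from mesenchyme, were at 5.87 and 7.07 ± 0.433 CPM per kb. SOX10, ELF5, TFAP2B, PRRX1 and SOX2 were at 0.0303 or less.

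Genes of other cell types were at or near the floor, with a few exceptions. No gene reached 1 CPM in every library among 6 endothelial, 5 adipocyte, 4 erythroid and 4 hepatocyte markers. Among 7 haematopoietic markers, CD68 did, at 4.98 ± 0.0899 CPM per kb, but 85.6% of its exon bases are shared with other genes, and PTPRC was at 0.00815. Among 6 neuronal markers SYT1 did, at 0.366 ± 0.000674 CPM per kb, whereas SNAP25 had 0 counts in each library. Of 5 melanocyte markers, MITF (2.26 ± 0.0447), PMEL (1.47 ± 0.0762) and MLANA (0.456 ± 0.0574) did, and the pigment enzymes TYR (0.00648) and DCT (0.00839) did not.

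EGFR was the leading receptor tyrosine kinase. EGFR (chromosome 7, 55019017 to 55211628, plus strand) was read at 57.8, 57.5 and 58.4 CPM per kb, at the 97.3th percentile of protein-coding genes. Within its family it made up 68.8% ± 0.408 of the summed CPM per kb, before ERBB2 with 22.4% ± 0.123, ERBB3 with 8.74% ± 0.307 and ERBB4 with 0.0781% ± 0.0199. EGFR thus exceeded ERBB2 by 3.09, 3.03 and 3.09 times.

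The ligands of the family were led by epigen. EPGN was read at 18.3, 17.9 and 19.2 CPM per kb, and TGFA, transforming growth factor alpha, at 4.39, 4.18 and 4.29. HBEGF (1.11 ± 0.0719), AREG (0.994 ± 0.249), and BTC (0.903 ± 0.140) were lower, and EGF itself was at 0.0311 ± 0.00295. Neighbours among HBEGF, AREG and BTC differed by less than the SD of AREG. Of the 8 brakes of the pathway, 6 reached 1 CPM in every library. ERRFI1, an inhibitor that binds the EGFR kinase, was read at 19.8 ± 0.200 CPM per kb, and the ubiquitin ligases CBL and CBLB at 6.57 ± 0.0148 and 4.41 ± 0.0918. The feedback genes SPRY4 (0.0393 ± 0.0184), SPRY1 (0.142 ± 0.0378) and DUSP6 (0.319 ± 0.0375), which ERK signalling is known to induce, were low.

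Of 58 receptor tyrosine kinases, 31 (53.4%) reached 1 CPM in every library, below the 62.9% of protein-coding genes, and the median was 0.574 CPM per kb. ROS1 (chromosome 6, 117288300 to 117425855, minus strand), a receptor best known from fusions in lung cancer, held the second place with 40.3, 40.2 and 41.7 CPM per kb and 43060, 30341 and 31137 counts. The collagen receptor DDR1 (33.5 ± 0.671), AXL (27.5 ± 0.769), FGFR3 (22.5 ± 0.152), PTK7 (20.3 ± 0.149), EPHB4 (19.7 ± 0.332) and MET (17.6 ± 0.217), the receptor of hepatocyte growth factor, followed, with ERBB2 between the last 2. EPHA1 (17.3 ± 0.412) and MET differed by less than the spread of EPHA1. CSF1R, the macrophage growth factor receptor, was at 6.52 CPM per kb while PTPRC, the pan-leukocyte gene, was at 0.00815. FGFR1 (0.334) and RET (0.152) were low, and PDGFRA, KIT, FLT3 and the NTRK genes were at 0.0311 CPM per kb or less.

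**Figure D2:**
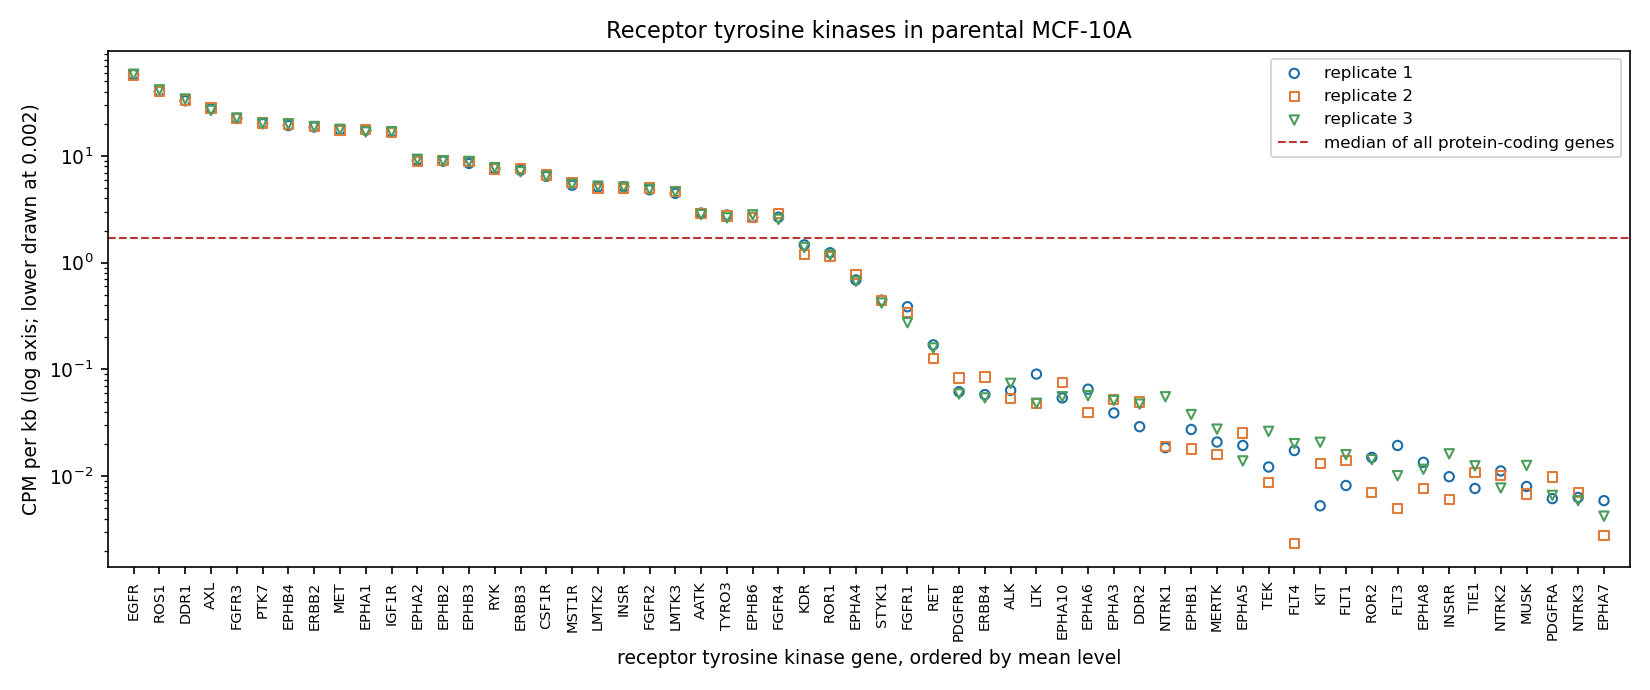
Levels of 58 receptor tyrosine kinase genes in each parental library, in CPM per kb on a log axis, ordered by their mean; the dashed line is the median of protein-coding genes. The libraries overlap for the higher genes, EGFR (57.9) and ROS1 (40.7) lead, and below about RET (0.152) the symbols of the 3 libraries spread apart.

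The receptors of the insulin in the medium were present at moderate levels. IGF1R was read at 16.7, 16.7 and 16.9 CPM per kb and INSR at 5.16, 4.99 and 5.12, a ratio of 3.29 ± 0.0588. The clearance receptor IGF2R stood at 16.2 ± 0.0889, and the adaptor SHC1 at 120.1 ± 1.55. The adaptor IRS2 (4.78 ± 0.206) held 94.9%, 98.1% and 97.7% of the summed CPM per kb of IRS1, IRS2 and IRS4. The difference between libraries came with IRS1, which was read at 0.266 CPM per kb in replicate 1 and 0.0753 and 0.0983 in the others. Among ligands and binding proteins, IGFBP6 reached 132 ± 1.46 and IGFBP7 12.5 ± 0.534, while INS had 0 counts in each library and IGF1 was at 0.00692.

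PI 3-kinase, which acts below these receptors, was represented by 11 of 14 genes at 1 CPM or more (78.6%, against 62.9% of protein-coding genes). The regulatory subunit gene PIK3R2 was the highest at 36.1 ± 0.530 CPM per kb. The catalytic genes PIK3CD (6.85 ± 0.0465), PIK3CB (5.33 ± 0.0310) and PIK3CA (4.72 ± 0.213) stood close to each other, and PIK3CG was at 0.00536 ± 0.00356. PIK3CA shares 35.2% of its exon bases with other genes, so its place in that order is uncertain. The kinase genes AKT1 and AKT2, which act below them, were at 13.8 ± 0.256 and 7.45 ± 0.139 CPM per kb.

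Of 48 nuclear receptors, 29 reached 1 CPM in every library (60.4%, against 62.9% of protein-coding genes), with a median of 0.567 CPM per kb. The orphan receptors NR2F6 (47.5 ± 0.712) and ESRRA (42.7 ± 0.583) led, before RARG (27.1 ± 0.211), a retinoic acid receptor of epithelia, and the glucocorticoid receptor NR3C1 (21.0 ± 0.224). RARG held 89.5% ± 0.394 of the summed level of the 3 retinoic acid receptors. The mineralocorticoid receptor NR3C2 was at 0.611, so NR3C1 exceeded it by 37.2, 35.7 and 30.8 times. The vitamin D receptor VDR was at 9.93 ± 0.145.

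Genes known to respond to glucocorticoids were high in this medium, which contained hydrocortisone. Of 11 genes, 10 (90.9%) reached 1 CPM in every library, against 62.9% of protein-coding genes. Their median was 19.8 CPM per kb, against 1.69 over protein-coding genes. The phosphatase gene DUSP1 was read at 461, 459 and 467 CPM per kb and the metallothionein MT2A at 455, 437 and 444. FKBP5, a co-chaperone of the receptor, reached 84.3 ± 0.382, TSC22D3 60.4 ± 0.309, PER1 21.2 ± 0.625, SGK1 12.4 ± 0.0714 and ZBTB16 11.6 ± 0.102. HSD11B2, which inactivates cortisol, was at 1.55 ± 0.123 and HSD11B1, which regenerates it, at 0.0226 ± 0.00433. No library without hydrocortisone belongs to the parental group, so a response to it was not measured.

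The 150 bases before the start of DUSP1 and of MT2A are shown because these were the highest genes of that list, from RefSeq (GRCh38.p14), 5′ to 3′ on the gene's strand. DUSP1 lies on the minus strand at chr5:172771196-172771345 and MT2A on the plus strand at chr16:56608434-56608583. Capitals mark TGACGTCA, the cAMP response element searched on both strands, and TATAAA, the TATA box searched on the gene's strand.
DUSP1: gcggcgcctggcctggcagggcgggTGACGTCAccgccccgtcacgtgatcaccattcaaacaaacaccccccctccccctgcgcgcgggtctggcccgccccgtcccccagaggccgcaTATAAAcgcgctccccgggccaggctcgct
MT2A: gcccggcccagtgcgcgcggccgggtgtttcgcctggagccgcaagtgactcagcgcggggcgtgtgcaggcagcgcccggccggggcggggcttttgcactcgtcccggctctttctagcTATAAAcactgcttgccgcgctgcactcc
The TATAAA begins 30 bases before the start of DUSP1 and 29 bases before that of MT2A. It was found in 2 of the 9 members of the list with a promoter entry, and in 787 of 15324 protein-coding genes (5.14%). TGACGTCA begins 125 bases before the start of DUSP1 and was found in 1 of the 9 members, and in 312 of the 15324 genes (2.04%). These are matches of letters, and binding was not measured.

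The route of cholera toxin was present in part. GNAS was read at 37.1, 37.7 and 37.3 CPM per kb. Of the adenylyl cyclases, ADCY3 (11.5 ± 0.0736), ADCY7 (8.87 ± 0.141), ADCY9 (8.53 ± 0.152) and ADCY6 (7.96 ± 0.155) were the highest, and ADCY3 and ADCY7 share 26.0% and 41.6% of their exon bases with other genes. PDE4D, which breaks down cAMP, held 96.0% ± 0.489 of the summed level of the 4 PDE4 genes. B3GALT4, the enzyme that makes GM1, was at 0.00293 CPM per kb and at or under 3 counts in each library, beside 1.34 ± 0.0425 for B4GALNT1 and 0.0724 for ST3GAL5, which make its precursors.

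TGFBR2 (27.5 ± 0.371) and its ligand TGFB1 (33.7 ± 1.38) stood above the other members of their lists. Of 15 receptors 12 (80.0%) and of 13 genes listed as ligands 7 (53.8%) reached 1 CPM in every library, against 62.9% of protein-coding genes. The 7 include BMP1 (25.5 ± 0.227 CPM per kb), which encodes a protease rather than a ligand. NOTCH1 (42.8 ± 0.639) held 60.6% ± 0.403 of the Notch receptor level, and its ligand JAG2 (51.8 ± 0.635) and target HES1 (45.9 ± 0.188) were close to it. Of 12 WNT receptors 11 (91.7%) reached 1 CPM, led by FZD6 (33.6 ± 0.381) and LRP5 (25.3 ± 0.440). Of 19 cytokine and death receptors 17 (89.5%) did, led by TNFRSF10B (31.9 ± 0.434), a TRAIL receptor. The leukocyte receptors TNFRSF1B (0.0149) and CD40 (0.00861) did not.

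The genes of E-cadherin and P-cadherin together led the classical cadherins at the RNA level. CDH1 (chromosome 16, 68737292 to 68835541, plus strand) was read at 89.1, 88.2 and 89.0 CPM per kb and CDH3 at 70.0, 70.4 and 69.7. The ratio of CDH1 to CDH3 was 1.27, 1.25 and 1.28. N-cadherin, CDH2, was at 0.827 ± 0.0435, so CDH1 exceeded it by 109.9, 101 and 112 times. JUP, or plakoglobin, the catenin shared with desmosomes, was at 229 ± 3.05 and beta-catenin, CTNNB1, at 24.9 ± 0.135.

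Desmosomal genes were among the highest adhesion genes, with a median of 25.1 CPM per kb. Of 14 genes, 11 (78.6%) reached 1 CPM in every library, against 62.9% of protein-coding genes. PERP, a p63 target of desmosomes, reached 375 ± 9.80 and DSP, or desmoplakin, 199 ± 0.949. The desmogleins DSG3 and DSG2 held 57.0% ± 0.124 and 43.0% ± 0.128 of their family's level, and the desmocollins DSC3 and DSC2 58.3% ± 0.299 and 41.6% ± 0.303. Members known from differentiated epidermis were low, with DSG1 at 0.0143 ± 0.00249, DSC1 at 0.0579 ± 0.00643 and PKP1 at 0.191 ± 0.0252 CPM per kb. PKP1 still reached 1 CPM in every library, at 1.35, 1.17 and 1.04. PKP3 (53.7 ± 0.271) held 82.9% ± 0.170 of the plakophilin level.

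Tight and gap junction genes were sparser. Of 28 tight junction genes 13 (46.4%) reached 1 CPM, against 62.9% of protein-coding genes, with a median of 0.244 CPM per kb. F11R (58.9 ± 0.546), a junctional adhesion molecule with 36.6% of its exon bases shared, and CLDN7 (53.7 ± 1.08) led, CLDN4 was at 5.20 ± 0.235, and CLDN1, the usual claudin of squamous epithelium, was at 0.268 ± 0.0277. Of 11 connexins 5 (45.5%) reached 1 CPM, among them GJB5 (25.6 ± 1.27). GJA1, the connexin known from myoepithelium, was at 0.00865, 0 and 0.0155 CPM per kb.

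Hemidesmosomes anchor basal cells to laminin. All 9 of their genes reached 1 CPM in every library, against 62.9% of protein-coding genes, with a median of 116 CPM per kb. The integrin ITGB4 (chromosome 17, 75721328 to 75757818, plus strand) was read at 387, 394 and 388 CPM per kb, above PLEC (159 ± 0.140) and COL17A1 (116 ± 1.81). ITGA6, with which ITGB4 pairs, was at 52.6 ± 0.738. ITGB4 also exceeded ITGB1 (146 ± 1.81), the partner of most other alpha chains, by 2.66, 2.74 and 2.63 times. LAMB3 and LAMA3, chains of its ligand laminin-332, were at 144 ± 0.734 and 62.5 ± 0.730.

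Of 26 integrins 17 reached 1 CPM in every library (18 without replicate 1). That was 65.4%, close to the 62.9% of protein-coding genes, and the median was 0.609 CPM per kb. Behind ITGB4 and ITGB1 came ITGA3 (54.1 ± 0.605), ITGA6, ITGB6 (34.4 ± 0.425), ITGAV (30.1 ± 0.441) and the fibronectin receptor chain ITGA5 (23.4 ± 0.124). ITGA3 (53.4 to 54.6) and ITGA6 (52.1 to 53.5) overlapped between libraries. The leukocyte and platelet chains ITGAL (0.00622), ITGAD (0.0179), ITGAX (0.0312) and ITGB3 (0.0299) were near the floor. Among laminin alpha chains LAMA5 held 57.2% ± 0.265 and LAMA3 42.6% ± 0.258, and LAMA1, LAMA2 and LAMA4 were at 0.182 CPM per kb or less.

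**Figure D3:**
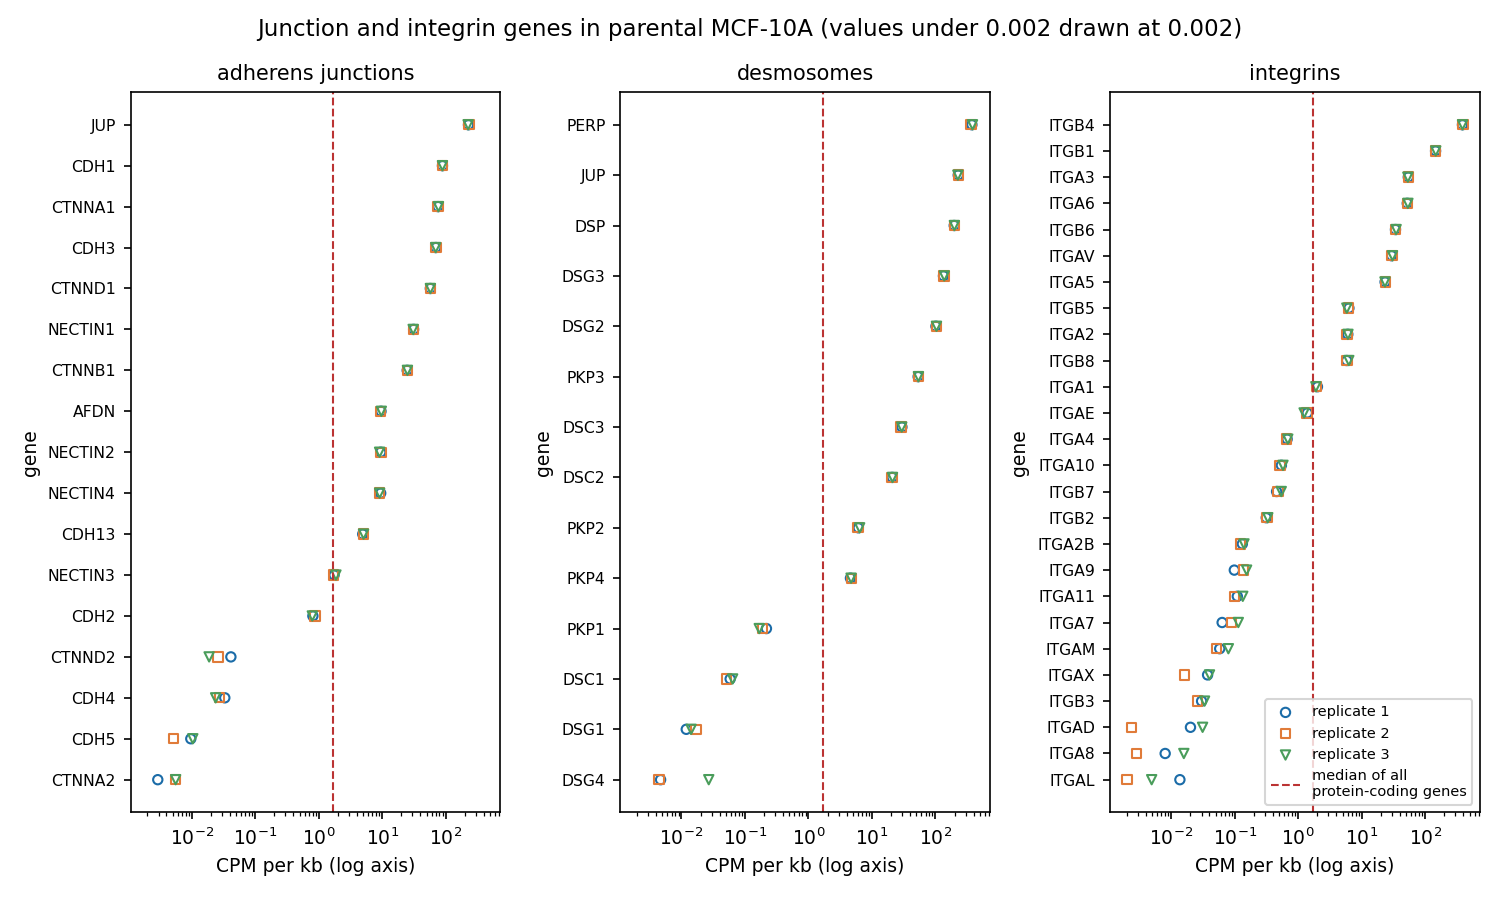
Levels of adherens junction, desmosome and integrin genes in each parental library, in CPM per kb on a log axis, ordered by mean within each panel; the dashed line is the median of protein-coding genes. The 3 libraries overlap above about 1 CPM per kb, with JUP (229), PERP (375) and ITGB4 at the top of their panels.

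Of 15 basement membrane genes 13 (86.7%) reached 1 CPM in every library, against 62.9% of protein-coding genes. COL17A1 led them, before DAG1 (48.4 ± 0.562), FN1, HSPG2 (26.6 ± 0.402) and COL7A1 (23.9 ± 0.664), the anchoring fibril collagen. COL4A6 (17.8 ± 0.103), COL4A2 (15.2 ± 0.201), COL4A5 (13.0 ± 0.144) and COL4A1 (10.8 ± 0.130) were above COL4A4 (0.989) and COL4A3 (0.0801). The syndecans SDC1 (163 ± 1.19) and SDC4 (118 ± 2.18) led 13 other receptors, and VCAM1, at 0.00255 CPM per kb, was at or under 3 counts in each library.

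In glucose metabolism, single isoforms dominated several steps. Of 37 genes 26 reached 1 CPM in every library (70.3%, against 62.9% of protein-coding genes), with a median of 6.49 CPM per kb. SLC2A1, or GLUT1, was read at 41.9, 40.9 and 41.6 CPM per kb and held 99.8% ± 0.0741 of the level of the 4 transporters measured. HK1 (57.0 ± 0.529) held 95.9% ± 0.230 of the hexokinase level and exceeded HK2 by 25.9, 23.3 and 23.5 times. PFKP held 70.2% ± 0.201 of the phosphofructokinase level.

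PKM was at 231 ± 2.76 CPM per kb and the liver form PKLR at 0.0197. The lactate dehydrogenases were near parity, with LDHA at 104 ± 1.11 and LDHB at 114 ± 1.20, but LDHB shares 33.4% of its exon bases with other genes. ENO3, the muscle enolase, held 16.7% ± 0.358 of the enolase level at 57.3 ± 0.657, beside ENO1 at 285 ± 4.29. The lactate exporter SLC16A3 was at 34.7 and SLC16A1 at 23.9 CPM per kb.

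**Figure D4:**
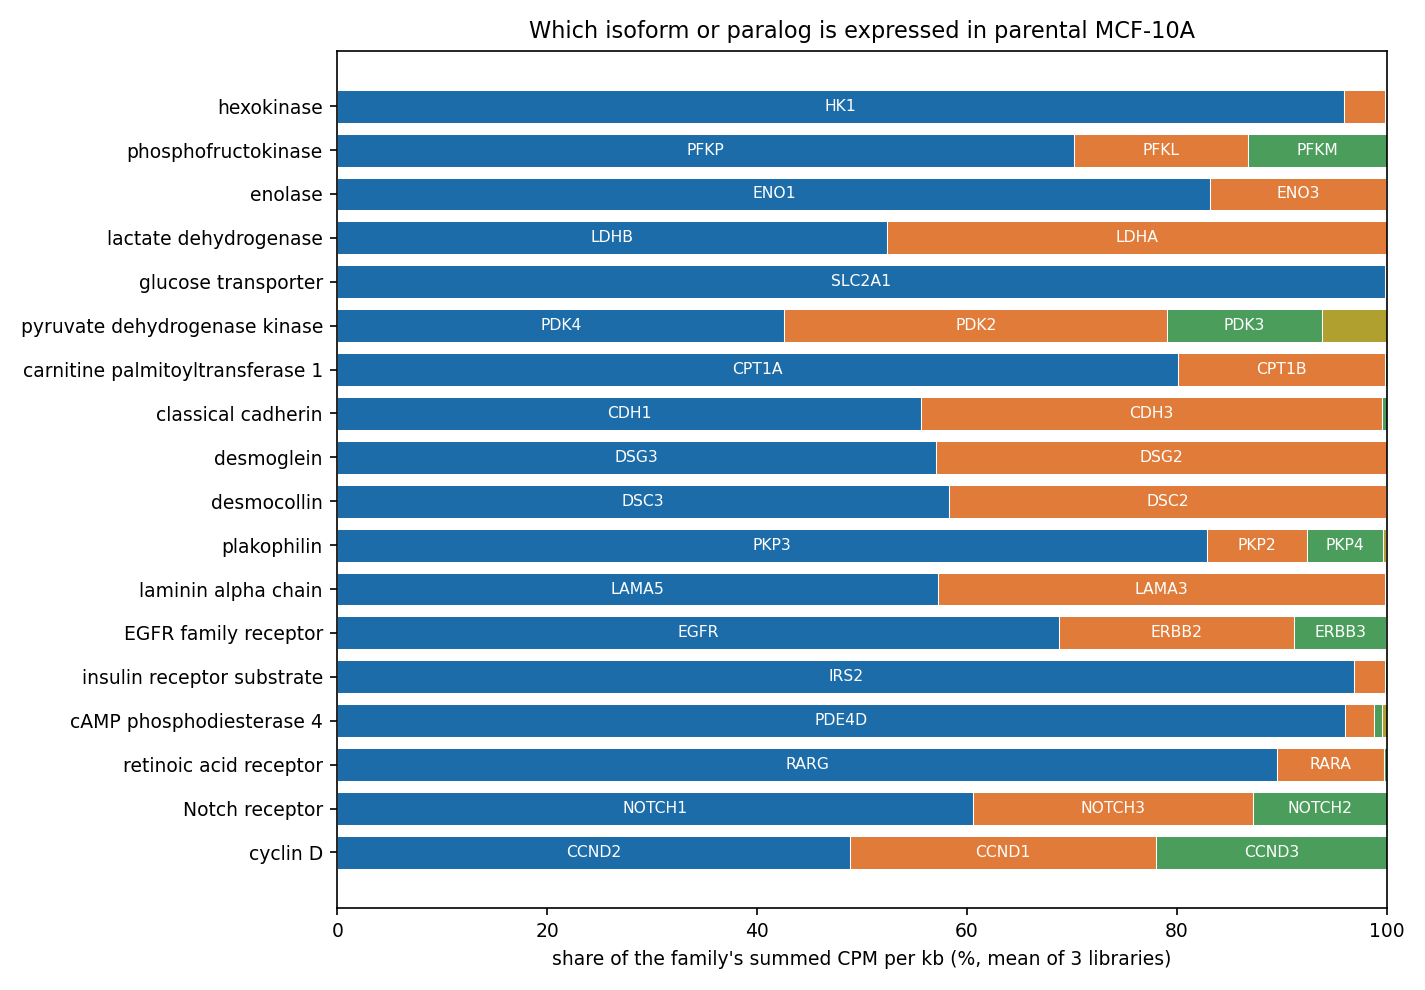
Share of each gene in the summed CPM per kb of its family, as the mean of the 3 parental libraries in percent; segments are ordered by size and those over 7% carry the gene's name. HK1 (95.9%), SLC2A1 (99.8%) and PDE4D (96.0%) hold nearly the whole of their families, whereas LDHB and LDHA, or DSG3 and DSG2, divide theirs.

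Genes of pyruvate entry, the citric acid cycle and the mitochondrial genome were present broadly. The list for pyruvate and the cycle also holds cytosolic enzymes, such as IDH1. Of its 36 genes 34 (94.4%) reached 1 CPM in every library, against 62.9% of protein-coding genes. It was led by MDH2 (59.3 ± 0.267), IDH1 (56.0 ± 0.534) and FH (46.6 ± 0.511). PDK4 and PDK2, which restrain pyruvate entry, held 42.6% ± 1.44 and 36.5% ± 1.49 of their family's level, and PDK1 6.26% ± 0.346. The 13 mRNAs of the mitochondrial genome took 1.01%, 1.00% and 0.958% of counts. MT-CO1 was alike in the libraries, at 2464, 2489 and 2498 CPM per kb, whereas the other 12 were lowest in replicate 3, with MT-ATP6 at 764, 778 and 671. The ubiquitous cytochrome oxidase gene COX4I1 was at 41.6 ± 1.59, and COX6A2 and COX8C had 0 counts in each library.

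Of 25 genes of cholesterol synthesis and uptake 24 (96.0%) reached 1 CPM in every library, against 62.9% of protein-coding genes. Their median was 39.8 CPM per kb. Among the highest were MSMO1 (103 ± 2.13) and SQLE (81.8 ± 0.350), enzymes of sterol synthesis, and CYP51A1 (97.1 ± 0.844, 84.5% of exon bases shared). Of 33 fatty acid genes 27 (81.8%) reached 1 CPM. SCD, the stearoyl-CoA desaturase, was read at 376, 375 and 374 CPM per kb, FASN at 179 ± 0.534 and ACLY at 118 ± 1.67. CPT1A, the entry of fatty acids into mitochondria, was at 21.0 ± 0.0287.

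Amino acid and redox genes were led by transport and peroxide removal. SLC7A5 (chromosome 16, 87830023 to 87869507, minus strand), the large neutral amino acid transporter, was read at 1148, 1153 and 1140 CPM per kb, and SLC3A2, its heavy chain, at 151 ± 1.06. Glutamine synthetase, GLUL, reached 334 ± 3.35. The serine pathway gene PHGDH was at 4.45 and ASNS at 3.04. Of 24 antioxidant genes measured 23 (95.8%) reached 1 CPM in every library, against 62.9% of protein-coding genes. They were led by GPX1 (277 ± 2.81), PRDX1 (256 ± 3.42, 25.2% of exon bases shared) and PRDX5 (229 ± 10.4).

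Growth control genes included MYC at 86.5, 85.6 and 86.6 CPM per kb and the cell cycle inhibitor CDKN1A at 86.8, 90.7 and 89.0. Of the D-type cyclins, CCND2 (22.7 ± 0.185) exceeded CCND1 (13.6 ± 0.592) by 1.59, 1.75 and 1.68 times. The proliferation genes MKI67 and TOP2A were at 2.66 and 4.97 ± 0.233, and the telomerase gene TERT at 0.0326. MCF-10A is known to lack the CDKN2A locus. CDKN2A (chromosome 9, 21967753 to 21995301, minus strand) had 6, 8 and 2 counts in replicates 1, 2 and 3, and its neighbour MTAP (21802636 to 21937651) had 4, 4 and 5. CDKN2B was at 0.0119 CPM per kb. Farther out on the same arm, KLHL9 was at 3.95 ± 0.0887, ELAVL2 at 1.85 to 2.09 and DMRTA1 at 0.215 ± 0.00753.

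Replicate 1 differed from replicates 2 and 3 in a set of low genes. A gene was counted as higher in a library if it had at least 20 counts there and at least 2 times the CPM of both others, with these raised to 3 counts. By this rule 230 of 21522 genes (1.07%) were higher in replicate 1, against 93 of 20192 (0.461%) in replicate 2 and 108 of 20173 (0.535%) in replicate 3. In the lower direction the counts were 49 of 19506 (0.251%), 115 of 19924 (0.577%) and 92 of 19913 (0.462%). Replicate 1 had the largest total, and a minimum of 20 counts is a lower CPM there. With all libraries thinned to the smallest total, 149, 96 and 103 genes were higher in replicates 1, 2 and 3. At a minimum of 50 counts and a 3-fold difference, 33 genes were higher in replicate 1 and 0 in each of the others.

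Among protein-coding genes 119 of 14505 (0.820%) were higher in replicate 1, against 21 and 35 in replicates 2 and 3. They were low genes, with a median of 0.250 CPM in replicate 1, a maximum of 9.93 and 13 genes at 1 CPM or more. None of the 7747 genes tested at 10 to 100 CPM nor of the 1667 above was among them. They summed to 93.0 CPM in replicate 1, 14.6 in replicate 2 and 15.6 in replicate 3, and lay on 23 chromosomes, with at most 12 on 1 of them.

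Of the hormone-sensing list, 5 of the 19 members with enough counts were higher in replicate 1, beside the 0.820% of protein-coding genes, and 0 in replicates 2 and 3. TFF1, a secreted estrogen-responsive peptide (chromosome 21, 42362282 to 42366535, minus strand), had 1352, 48 and 70 counts, or 9.93, 0.500 and 0.736 CPM. PGR had 125, 10 and 10 counts, PRLR 248, 21 and 23, SPDEF 78, 8 and 5, and TFF3 36, 8 and 0. The summed level of the list was 356 CPM in replicate 1 and 321 and 322 in the others. ESR1 and GREB1, with 1797, 1163 and 1116 and 6204, 3720 and 3760 counts, were higher in replicate 1 but did not pass the fold. Without replicate 1 the list again had 13 genes at 1 CPM or more.

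Among the 20 protein-coding genes with the largest ratios, IGFBP5, an insulin-like growth factor binding protein (chromosome 2, 216672105 to 216695549, minus strand), led with 1224, 32 and 32 counts, a ratio of 26.7 to the next library. PREX1, a Rac exchange factor, had 1170, 59 and 60, NPY1R, a neuropeptide Y receptor, 1059, 84 and 70, and GFRA1, a GDNF co-receptor, 369, 22 and 28. IGFBP4 had 252, 24 and 24 and the chemokine CXCL12 62, 5 and 4. In each of these, replicates 2 and 3 were close to each other and replicate 1 lay at least 7.33 times above.

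The others of these 20 were TSPYL5, CCDC170, IL20, C9orf152, SPTSSB, SLCO4C1, C3orf14, NPY5R and HENMT1, with 29 to 246 counts in replicate 1 and ratios from 5.76 to 14.7. The luminal keratin KRT19 had 1328, 152 and 158 counts, or 9.76, 1.58 and 1.66 CPM. Its mean of 1.85 CPM per kb, used for its list, was 4.18 in replicate 1 and 0.677 and 0.711 in the others.

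The lists were chosen with earlier results of these data known. Of 820 list members measured, 678 had enough counts and 14 were higher in replicate 1, beside 119 of 14505 protein-coding genes (0.820%). Beside those named, these were IRS1 (361, 72 and 93 counts), the claudin CLDN3 (72, 14 and 16), the glucose transporter SLC2A3 (70, 14 and 16), the feedback gene SPRY4 (54, 19 and 17), BMP7 (41, 5 and 13) and LYZ (21, 4 and 2). The luminal keratins KRT8 and KRT18 were also highest in replicate 1, at 1023, 963 and 970.1 CPM and at 391, 372 and 371 CPM, without passing the fold. The luminal keratin KRT7 was lowest there, at 4341, 4504 and 4476 CPM. The whole luminal list summed to 6785, 6857 and 6867 CPM, and so was not higher in replicate 1. The 19 basal markers held 0 genes past the fold, and summed to 40313, 40413 and 39714 CPM. LYZ shares 34.0% of its exon bases with other genes. What set replicate 1 apart was not tested.

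**Figure D5:**
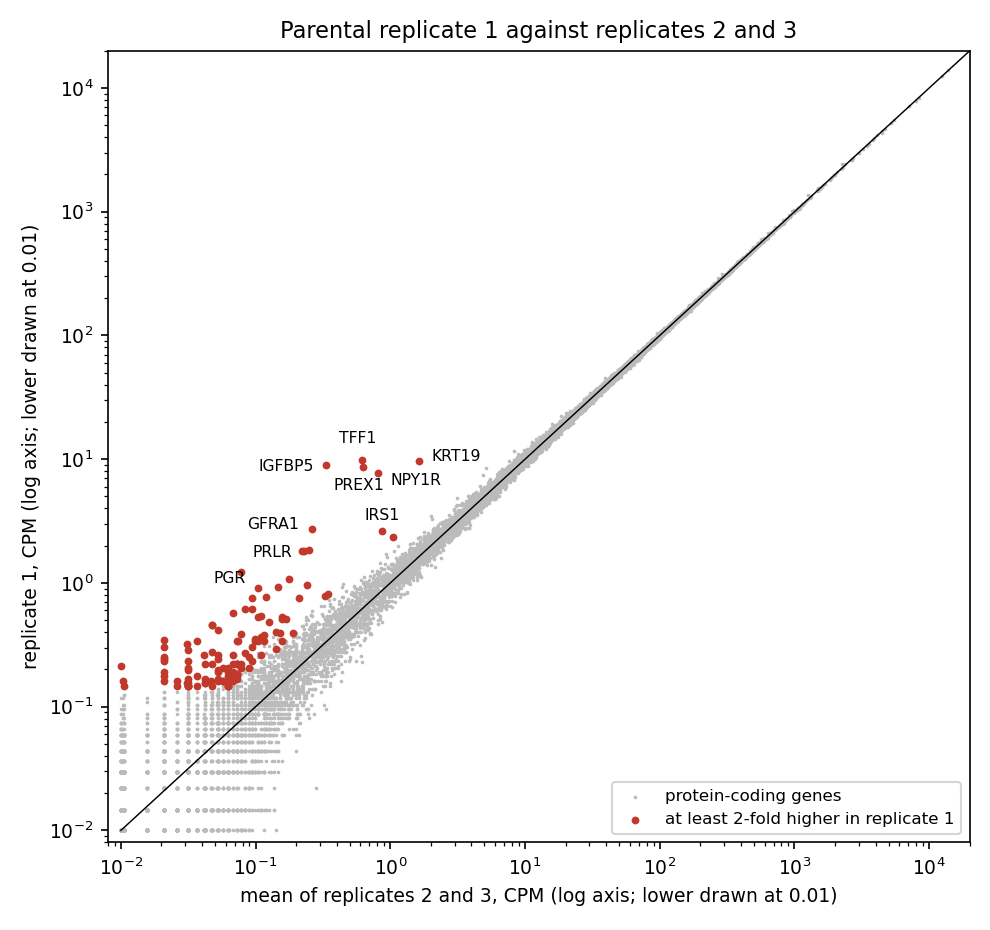
CPM of each protein-coding gene in parental replicate 1 against the mean of replicates 2 and 3, on log axes; red marks the 119 genes at least 2-fold higher in replicate 1 and the line marks equal levels. The red genes lie below 10 CPM, with TFF1, KRT19, IGFBP5, PREX1 and NPY1R the highest, and genes above that level follow the line.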

How the data were processed

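Gene counts of the 3 parental libraries were used as the authors deposited them, and 3 other count columns of the same table were not used. Libraries were depleted of ribosomal RNA and sequenced from both ends (150 bp), per the labels' protocols. Counts came from featureCounts 2.0.0 with GENCODE 32 exons of hg38, without strand, with each of the 2 mates counted and reads given to every gene they overlapped, per the file headers. Overlapping genes therefore share counts, and the share of exon bases in common was computed from the deposited exon coordinates. The submitters' processing notes name STAR, SAMtools 1.5, Trim Galore 0.4.0, FastQC and cutadapt.

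Of 60609 gene identifiers, 60295 were matched to GENCODE 44 names and 314 were not, with 1 list member (SOD2) among the latter. CPM were divided by the deposited exon length. The columns are headed parental and were matched to the samples titled WT by replicate number. Values are means ± SD of 3 libraries, which the labels do not say are separate cultures. The chi-square of counts between libraries averaged 3.52 to 4.60 per gene over 15698 genes, where counting noise alone gives up to about 2, since both mates were counted. No test between groups was made. The code that applies the fold rule was checked on simulated counts. The 50 gene lists (821 genes), families and named genes were chosen with earlier results of these data known. Named were the 20 highest protein-coding genes, the 10 highest long noncoding RNAs, list members by level, and the 20 largest ratios of replicate 1 with each list member past the fold. The microRNA hosts and the genes whose promoters are printed were picked after their values were seen. Alternatives were other scalings, thresholds, thinning and leaving out a library, with TMM factors from edgeR 4.0.16 (R 4.3.3). Python 3.11.15 with pandas 2.3.3, numpy 2.4.6 and matplotlib 3.10.9 was used. Some members of the lists are counted but not reported by name here.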

Additional observations from a re-analysis of the deposited data

How the results depend on the processing

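The count of protein-coding genes at 1 CPM or more was 12521 with TMM factors, 14420 at 0.1 CPM, 10881 at 1 CPM per kb and 12541 to 12556 with a library left out. Of the 50 lists, 29 had a median above that of protein-coding genes, and as many did as TPM, per protein-coding total, with TMM factors and without each library. Genes higher in replicate 1 (230) numbered 643 at a minimum of 10 counts, 48 at 50 counts, 598 at 1.5-fold, 103 at 3-fold, 119 among protein-coding genes and 149 after thinning. Against replicate 3 or 2 alone, an alternative chosen after seeing the data, they numbered 566 and 617. Genes lower in replicate 1 (49) numbered 228, 3, 214, 4 and 17 in the same order up to protein-coding genes, and 254 to 282 against 1 library. Fewer counts, a lower fold or fewer libraries admit more genes by construction. Below 1 CPM the spread between libraries limits any order of genes. No paired analysis was possible because 1 group was described.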
